A study of Mus musculus with 6 samples.

Results

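The Ifi200 genes and Aim2 form one family of interferon-inducible genes, the PYHIN genes, and 10 of them were followed here in the lacrimal gland of 2 kinds of mouse. The 10 genes were Aim2, Ifi202b, Ifi203, Ifi204, Ifi206, Ifi207, Ifi208, Ifi209, Ifi211 and Mndal, taken by name from a table of 55401 Ensembl gene identifiers. They were chosen with their levels in both kinds of mouse already known, so their strain differences are described and not tested. Polyadenylated RNA was sequenced from whole lacrimal gland, the main source of tears, with 1 library from each of 3 samples of ICR mice and 3 samples of NOD/Ltj mice. The labels make the outbred ICR stock the control. Mice of the inbred NOD/Ltj strain develop autoimmune tear and salivary gland inflammation without treatment and are used to study Sjögren's syndrome. No treatment, transgene or deletion is named for either group. Age and sex are not labelled, and any such difference cannot be told apart from strain. Nor do the labels tie each sample to its own animal, so p-values measure only the spread between these samples, which may be technical.

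PYHIN proteins recognise double-stranded DNA through a HIN domain, and most of them carry a pyrin domain that joins them to partner proteins. Aim2 assembles an inflammasome on cytosolic DNA through the adaptor Pycard, which activates caspase-1, cleaves gasdermin D and releases interleukin-1β and interleukin-18. Ifi204 is linked to the adaptor Sting and type I interferon, while Ifi202b has HIN domains without a pyrin domain and can oppose Aim2. The genes lie side by side on distal chromosome 1, many respond to interferon, and myeloid cells, lymphocytes and stromal cells use them to different extents.

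All 10 genes had counts and passed the filter on low counts. Total estimated counts ran from 58426580 to 76554340 per library. Of the low values, 30.35 to 31.66% were multiples of 4, beside 25% without steps. A fragment was taken to add about 4 counts, an assumption, since most low values lay off these steps. On that assumption a count of 0 allows up to 3 fragments, or 12 counts, for counting error only. This floor is 0.149 to 0.222 CPM (counts scaled to TMM-adjusted library size). The sum of 10 lacrimal epithelial markers was 2840 to 3500 CPM in ICR and 2630 to 2850 CPM in NOD/Ltj, with no marker at 0 in an ICR library. Libraries stood apart in neighbouring tissue: 3 salivary genes summed to 10700 CPM in ICR 3, 1790 CPM in NOD 2 and 41.0 CPM in NOD 1, and 4 skeletal muscle genes to 70.0 CPM in ICR 3 against at most 3.20 CPM elsewhere. ICR 1 had the highest sums of macrophage and fibroblast markers, with values given below. In bulk tissue, more cells of a type and more RNA per cell cannot be told apart.

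A short element stands before the start sites of most of these genes, and it is shown first so that the letters of the family members can be compared. RefSeq windows of the 250 bases before each start (build GRCm38.p6) matched 9 of the 10 genes and 3 of their relatives, Ifi205, Ifi213 and Ifi214. Ifi204 and the pseudogene Ifi203-ps were not matched. Each window was searched on both strands for the core of the interferon-stimulated response element, GAAANNGAAA, and for that of the gamma-activated site, TTCNNNGAA. The first core stood in 6 of the 9 members matched, in the 3 relatives, and in 2.98% of all 32851 RefSeq windows. In 7 genes it had the letters GAAATCGAAA and in 2, Ifi211 and Ifi205, GAAATTGAAA. These are reference sequences of the C57BL/6J assembly and not reads from ICR or NOD/Ltj, and a match is a description and not a site shown to be bound. The lines below give 30 bases, 5′ to 3′ on the strand of the gene, with the 10-base core in capitals.
Ifi206, chr1:173491339-173491368, minus strand: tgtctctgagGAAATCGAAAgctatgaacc
Ifi213, chr1:173599326-173599355, minus strand: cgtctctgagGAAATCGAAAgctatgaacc
Ifi208, chr1:173673597-173673626, plus strand: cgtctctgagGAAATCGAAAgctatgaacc
Ifi214, chr1:173536017-173536046, minus strand: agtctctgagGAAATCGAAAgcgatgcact
Ifi209, chr1:173630770-173630799, plus strand: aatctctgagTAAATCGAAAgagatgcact
Ifi207, chr1:173741831-173741860, minus strand: cctagccaggGAAATCGAAAattaagaaca
Mndal, chr1:173880204-173880233, minus strand: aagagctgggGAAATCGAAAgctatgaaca
Ifi203, chr1:173942508-173942537, minus strand: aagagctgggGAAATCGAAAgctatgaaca
Ifi211, chr1:173913064-173913093, minus strand: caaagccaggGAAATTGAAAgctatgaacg
Ifi205, chr1:174031870-174031899, minus strand: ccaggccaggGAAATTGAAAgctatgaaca

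The core lay 35 to 134 bases before the start in these windows. Ifi209 differed from the common core by G1T, counted from 1 at the 5′ end of the core, and so was not among those counted. By the GENCODE M21 annotation most of these stretches lie between genes. That of Ifi211 lies in an intron of Mndal, that of Ifi203 in an intron of Ifi203, and that of Mndal overlaps an exon of Mndal. Aim2 and Ifi202b held no GAAANNGAAA in their windows. Ifi202b alone of the 12 genes held TTCNNNGAA, which stands in 7.02% of all windows. It is printed whole to show this match, 148 bases before the start, in capitals. Among genes with GAAANNGAAA, Mndal, Ifi203, Ifi206, Ifi208, Ifi213 and Ifi214 had every NOD/Ltj library above every ICR library. Ifi207, Ifi211 and Ifi205, which also hold it, overlapped between the groups and were highest in ICR 1. Among genes without it, Aim2 and Ifi209 lay wholly above ICR in NOD/Ltj, and Ifi202b overlapped and was highest in ICR 1. Any part of the core in these levels was not tested. The stretch of Ifi202b lies between genes.
Ifi202b, chr1:173982845-173983094, minus strand: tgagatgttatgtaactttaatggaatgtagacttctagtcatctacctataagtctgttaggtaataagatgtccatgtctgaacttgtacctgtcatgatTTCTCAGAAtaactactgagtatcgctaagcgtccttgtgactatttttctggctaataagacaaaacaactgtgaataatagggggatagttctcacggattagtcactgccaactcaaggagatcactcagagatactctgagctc

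The family did not differ between the strains as a block, neither with all 6 libraries nor without ICR 1, though the values of 4 genes moved with ICR 1. Every NOD/Ltj library lay above every ICR library for 6 genes (Aim2, Mndal, Ifi203, Ifi206, Ifi208 and Ifi209), the groups overlapped for 4 (Ifi202b, Ifi204, Ifi207 and Ifi211), and for 0 genes did every NOD/Ltj library lie below. Without ICR 1 the log2 fold changes of those 4 were 0.87, 1.41, 0.55 and −0.01. Those of the other 6 then ran from 2.06 (Ifi203) to 4.7 (Ifi206). In the CPM of the remaining libraries, NOD/Ltj lay wholly above ICR for Ifi202b and Ifi204. The groups still overlapped there for Ifi207 and Ifi211. Over all 18537 genes tested, 11.2% lay wholly above and 8.89% wholly below. The edgeR fit called the same 6 genes higher and 0 lower, where it called 1.88% of all genes higher and 0.361% lower. DESeq2 called 6 (4.84% of all genes higher) and limma-voom 4 (0.664%). Since the genes were chosen from this contrast, nothing is read from these counts. Calls were lost over the whole table in most reduced fits. The edgeR count of the 10 genes was 6 without ICR 1 (2.10% of all genes higher), 4 without ICR 2 (0.577%), 3 without ICR 3 (0.621%), 5 without NOD 1 (2.09%), 1 without NOD 2 (0.330%) and 0 without NOD 3 (0.0572%). It was 3 with the replicate number as a block (0.696%).

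**Figure D1:**
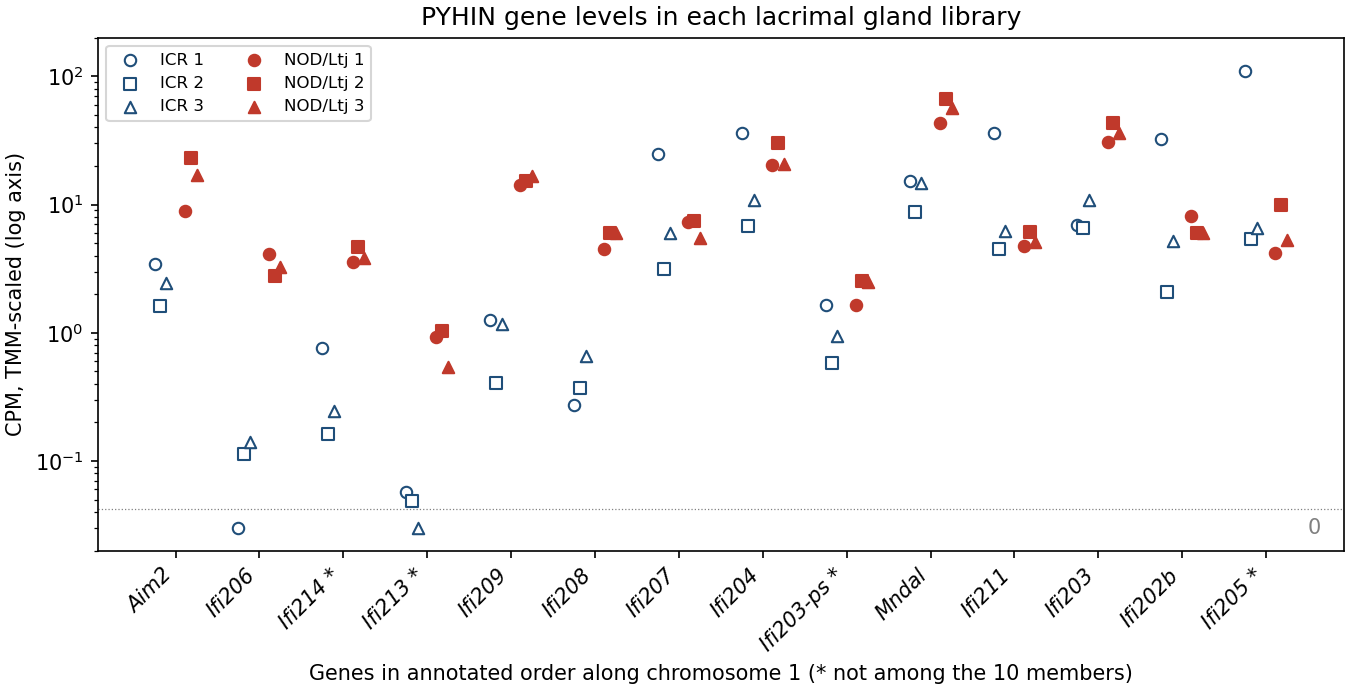
Level of 14 PYHIN genes in each library, in CPM on a log axis, in their annotated order along chromosome 1, with ICR open and NOD/Ltj filled and one symbol per library. A value of 0 is drawn below the dotted line. NOD/Ltj lies above ICR from Aim2 to Ifi208 and at Mndal and Ifi203, while ICR 1 is the highest library at Ifi207, Ifi204, Ifi211, Ifi202b and Ifi205.

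Aim2 (ENSMUSG00000037860), the inflammasome sensor, stood at 3.41, 1.63 and 2.45 CPM in ICR 1 to 3 and at 8.98, 22.9 and 17.1 CPM in NOD 1 to 3. The lowest NOD/Ltj library, NOD 1, lay above the highest ICR library, and NOD 2 stood highest. Means were 2.49 ± 0.889 and 16.3 ± 7.01 CPM (SD, n = 3 each), with a fitted log2 fold change of 2.71 ± 0.42 (SE), or 6.54-fold. With a library left out the log2 fold change ran from 2.38 to 3.00. No 75-base stretch of its transcripts occurs exactly in a transcript of another gene of GENCODE M21. Shorter or inexact matches and the sequences of the 2 strains themselves were not searched.

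Aim2 varied within NOD/Ltj in the order of the leukocyte markers. The 4 pan-leukocyte markers summed to 20.1 to 38.1 CPM in ICR, and to 111, 272 and 198 CPM in NOD 1 to 3. The 8 B cell markers summed to 3.15 to 5.33 CPM in ICR and to 99.5, 415 and 275 CPM in NOD 1 to 3, with Cd79b at 0 in an ICR library. The 6 T cell markers summed to 1.79 to 2.57 CPM in ICR and to 24.0, 67.0 and 54.6 CPM in NOD 1 to 3, with Cd3d and Cd5 at 0 in an ICR library. Of these lists 2 of 4, 7 of 8 and 5 of 6 markers rose by the test over all genes. Log2 fold changes of the 4 pan-leukocyte markers were 3.11 ± 0.38 (Ptprc), 3.1 ± 0.49 (Coro1a), 2.07 ± 0.42 (Cd53) and 1.99 ± 0.41 (Laptm5, SE). They lay on both sides of the 2.71 of Aim2. The part of leukocyte number in the Aim2 difference was not tested.

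Mndal (ENSMUSG00000090272) and Ifi203 (ENSMUSG00000039997), pyrin and HIN domain proteins encoded in overlapping genes, gave the most even strain difference. Mndal stood at 15.2, 8.75 and 14.6 CPM in ICR 1 to 3 and at 43.3, 66.5 and 56.3 CPM in NOD 1 to 3. Ifi203 stood at 6.94, 6.59 and 10.9 CPM in ICR 1 to 3 and at 30.8, 43.3 and 35.9 CPM in NOD 1 to 3. Neither gene overlapped between the groups, and NOD 2 was highest for both. The fitted log2 fold changes were 2.11 ± 0.27 for Mndal and 2.17 ± 0.25 for Ifi203 (SE), or 4.32-fold and 4.51-fold, and stayed between 1.90 and 2.44 with any library left out. The annotated exons of the pair share 37 bases on the same strand, and 11.1% of the 75-base windows of Mndal and 5.71% of those of Ifi203 occur in another gene. The gene sharing most was Ifi211 for Mndal (4.69%) and Ifi203-ps for Ifi203 (3.84%), so part of the counts of each could belong to relatives.

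Ifi206, Ifi208 and Ifi209, neighbours on the centromeric side of the cluster, were the 3 lowest members in ICR per kilobase and were present in every NOD/Ltj library. Of the 3, Ifi206 alone was below the floor in every ICR library. Ifi206 (ENSMUSG00000037849) stood at 0, 0.113 and 0.140 CPM in ICR 1 to 3 and at 4.09, 2.75 and 3.26 CPM in NOD 1 to 3. The ICR values rest on 15 counts, or about 4 fragments in the whole group at the assumed 4 counts per fragment, which the interval below also uses. The ratio of NOD/Ltj to ICR was 38.6 (14.8 to 143, exact 95% interval, counting error only). The fitted log2 fold change was 5.32 ± 0.86 (SE).

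Ifi209 (ENSMUSG00000043263) stood at 1.26, 0.404 and 1.17 CPM in ICR 1 to 3 and at 14.2, 15.4 and 16.7 CPM in NOD 1 to 3. The NOD/Ltj libraries were nearly equal and all far above ICR, with a fitted log2 fold change of 4.03 ± 0.43 (SE), or 16.3-fold. Ifi208 (ENSMUSG00000066677) stood at 0.274, 0.371 and 0.664 CPM in ICR 1 to 3 and at 4.53, 5.99 and 6.03 CPM in NOD 1 to 3, again without overlap. Its fitted log2 fold change was 3.66 ± 0.41 (SE), or 12.6-fold, and ran from 3.40 to 4.09 with a library left out. The 75-base windows shared with other genes came to 17.6% for Ifi206, 11.8% for Ifi208 and 23.1% for Ifi209, the last with Ifi214.

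Within NOD/Ltj this trio varied less than the pan-leukocyte, B cell and T cell sums, and about as much as the macrophage and plasma cell sums. From the lowest to the highest NOD/Ltj library, Ifi209 varied 1.17-fold, Ifi208 1.33-fold and Ifi206 1.49-fold, with Ifi206 highest and Ifi208 and Ifi209 lowest in NOD 1. Over the same libraries the pan-leukocyte sum varied 2.45-fold, the B cell sum 4.17-fold, the T cell sum 2.79-fold and Aim2 2.56-fold, with NOD 1 the lowest of each. The macrophage and monocyte sum varied 1.37-fold and the sum of 4 plasma cell markers 1.30-fold. The median gene with a count in every library varied 1.44-fold in NOD/Ltj. The 2 relatives next to them, Ifi214 and Ifi213, were not among the 10 genes. Ifi214 rose from 0.390 ± 0.327 to 4.03 ± 0.566 CPM (n = 3 per strain, ± SD; edgeR adjusted p = 0.0357), a call kept without ICR 1 (0.00689) and lost without any other library (0.0735 to 0.142) and with the replicate block (0.115). Ifi213 stood at 0.0354 ± 0.0310 and 0.835 ± 0.256 CPM (n = 3 per strain, ± SD; edgeR adjusted p = 0.0556). Its ratio was 19.7 (5.14 to 168, exact 95% interval), on about 2 fragments in ICR at the assumed 4 counts per fragment.

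**Figure D2:**
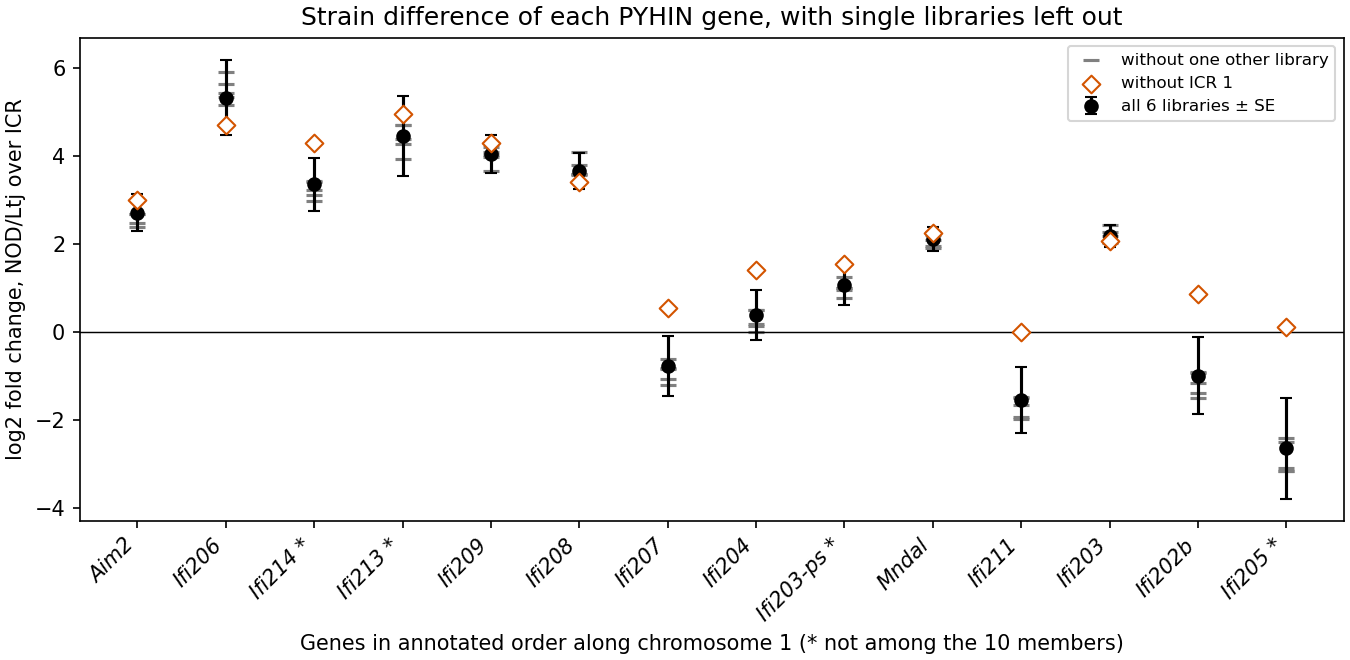
Fitted log2 fold change of NOD/Ltj over ICR for 14 PYHIN genes in their annotated order, with black points and bars for all 6 libraries ± SE, orange diamonds for the fit without ICR 1 and grey ticks for the fits without each other library. Without ICR 1 the values of Ifi207, Ifi204, Ifi211, Ifi202b and Ifi205 move up to between −0.01 and 1.41, while those of Mndal and Ifi203 stay near 2.

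Ifi202b (ENSMUSG00000026535), the family member without a pyrin domain, stood at 32.7, 2.08 and 5.17 CPM in ICR 1 to 3 and at 8.07, 6.02 and 5.98 CPM in NOD 1 to 3. ICR 1 was the highest of the 6 libraries and ICR 2 the lowest, so the groups overlapped. The log2 fold change was −0.99 ± 0.87 (SE) with all libraries, 0.87 ± 0.39 without ICR 1 and −0.07 with the replicate block, so its direction rests on ICR 1. No 75-base window of Ifi202b occurs in another gene.

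Ifi204 (ENSMUSG00000073489), the member tied to Sting, stood at 36.4, 6.86 and 10.9 CPM in ICR 1 to 3 and at 20.2, 30.4 and 20.7 CPM in NOD 1 to 3. Every NOD/Ltj library lay above ICR 2 and ICR 3 and below ICR 1. The log2 fold change was 0.39 ± 0.57 (SE), and 1.41 ± 0.29 without ICR 1. Of its 75-base windows, 13.2% occur in another gene, mainly Ifi211.

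Ifi207 and Ifi211, further pyrin and HIN domain proteins, had the same outlying library. Ifi207 (ENSMUSG00000073490) stood at 25.0, 3.16 and 5.96 CPM in ICR 1 to 3 and at 7.27, 7.41 and 5.50 CPM in NOD 1 to 3. Ifi211 (ENSMUSG00000026536) stood at 35.9, 4.47 and 6.17 CPM in ICR 1 to 3 and at 4.78, 6.09 and 5.13 CPM in NOD 1 to 3. ICR 1 was above all other libraries for both genes and the remaining values lay close together. The log2 fold changes were −0.76 ± 0.68 and −1.54 ± 0.74 (SE), and 0.55 ± 0.32 and −0.01 ± 0.25 without ICR 1. Ifi211 shares 63.6% of its 75-base windows with other genes, 40.6% with Ifi205, so its own level is uncertain.

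Ifi205, the most telomeric PYHIN gene and not among the 10, had the widest spread. It stood at 110, 5.38 and 6.53 CPM in ICR 1 to 3 and at 4.16, 9.97 and 5.28 CPM in NOD 1 to 3 (log2 fold change −2.64 ± 1.14 SE, adjusted p = 0.386, and 0.11 without ICR 1). The pseudogene Ifi203-ps stood at 1.06 ± 0.549 and 2.23 ± 0.504 CPM (n = 3 per strain, ± SD; edgeR adjusted p = 0.379). Of the 4 relatives tested, Ifi214 alone was called.

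Some markers of macrophages, fibroblasts, adipocytes and lacrimal epithelium were also highest in ICR 1, and endothelial markers were not. The 10 macrophage and monocyte markers summed to 177, 45.6 and 54.6 CPM in ICR 1 to 3 and to 93.4 to 128 CPM in NOD/Ltj, and 0 of 10 were called. Over all 6 libraries, 5 of these were highest in ICR 1 (Adgre1, Csf1r, Cd68, Mrc1 and Itgam). C1qa, C1qb, C1qc and Fcgr1 were highest in a NOD/Ltj library and Ly6c2 in ICR 2. Among the ICR libraries alone, 9 of the 10 were highest in ICR 1, all but Ly6c2. The 6 fibroblast and endothelial markers summed to 1160, 290 and 306 CPM in ICR 1 to 3 and to 230 to 260 CPM in NOD/Ltj, with 0 of 6 called. No marker of either list was at 0 in ICR. The fibroblast genes Dcn, Col1a1 and Pdgfra were highest in ICR 1, while the endothelial genes Pecam1, Cdh5 and Kdr were lowest there among the ICR libraries. Dcn stood at 693, 111 and 119 CPM in ICR 1 to 3 and Col1a1 at 429, 148 and 157 CPM, so a few genes carry the fibroblast and endothelial sum. Mrc1, a receptor of tissue macrophages, stood at 58.2, 7.62 and 7.84 CPM in ICR 1 to 3. It was the largest part of the macrophage sum in ICR 1, with C1qc next at 24.2, 4.68 and 5.8 CPM. In contrast Pecam1 stood at 3.91, 6.89 and 8.26 CPM in ICR 1 to 3 and at 10.5, 24.2 and 17.1 CPM in NOD 1 to 3. These genes were named after their values were seen. Adipocyte markers (3) summed to 12.1, 0.501 and 5.14 CPM in ICR 1 to 3 and to 0 to 4.61 CPM in NOD/Ltj. Of the 10 lacrimal epithelial markers, 5 were highest in ICR 1 (Aqp5, Pigr, Epcam, Krt8 and Krt18). Another 4 (Lpo, Bhlha15, Chrm3 and Elf5) were lowest there among the ICR libraries. Krt18 stood at 316, 170 and 173 CPM in ICR 1 to 3, and Lpo at 1540, 2390 and 1950 CPM. The epithelial genes too were named after their values were seen. The part of these cell types in the ICR 1 values was not tested.

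**Figure D3:**
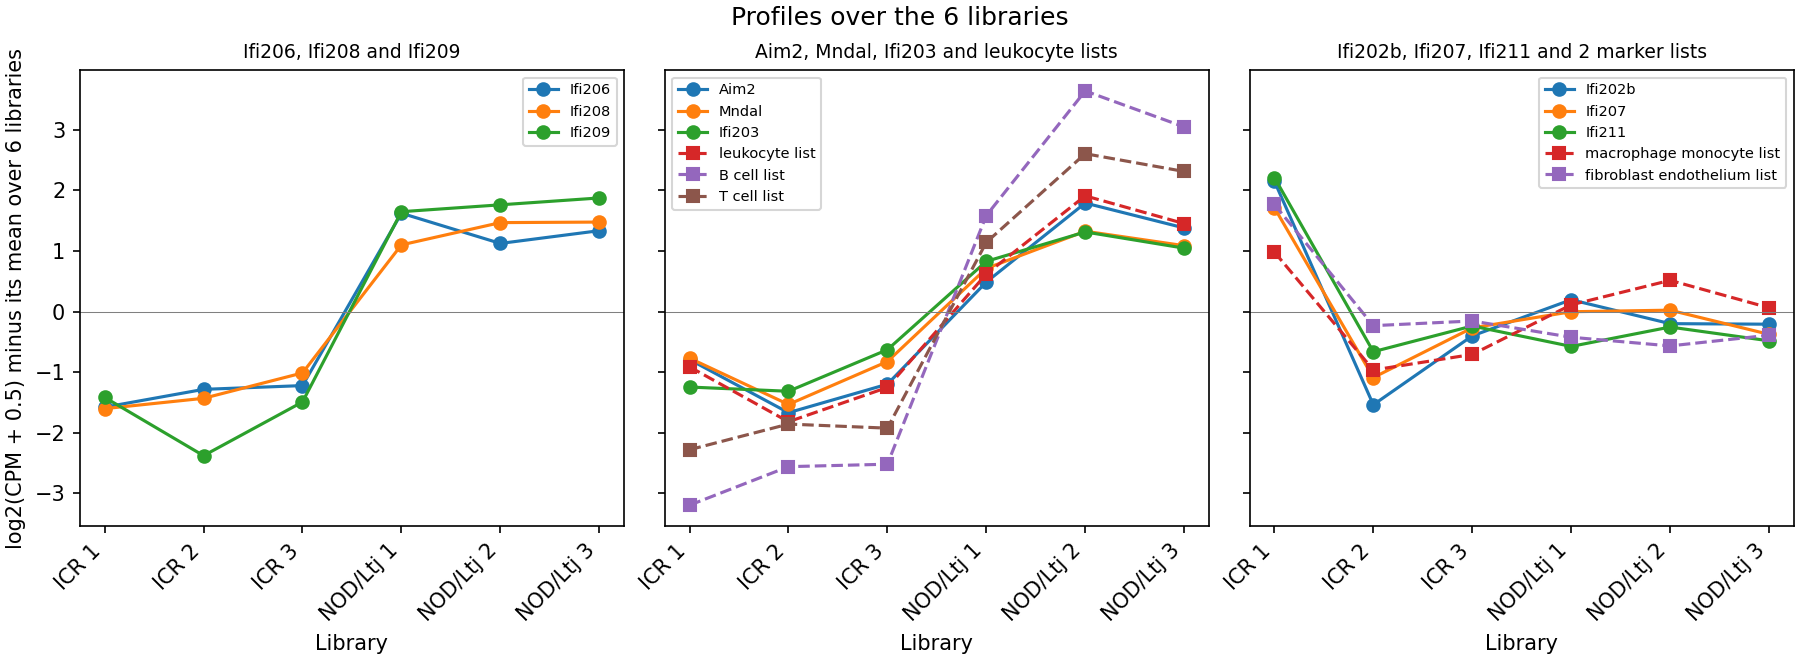
Profiles over the 6 libraries as log2(CPM + 0.5) minus the mean of each profile, with solid lines for genes and dashed lines for summed marker lists. Lines only join the values of one gene or list. Ifi206, Ifi208 and Ifi209 step between the strains, Aim2, Mndal and Ifi203 are lower in NOD 1 than in NOD 2 as the leukocyte lists are, and Ifi202b, Ifi207 and Ifi211 peak in ICR 1, as do the sums of the macrophage and the fibroblast and endothelium lists.

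Spread was wider within ICR. For the 9 genes with a count in every library, the highest ICR library exceeded the lowest by a median of 3.11-fold, and the highest NOD/Ltj library the lowest by 1.35-fold. The same medians over 17224 genes were 1.69-fold and 1.44-fold. In ICR the ratio ran from 1.65 (Ifi203) and 1.73 (Mndal) to 15.7 (Ifi202b). ICR 1 was the highest ICR library for 7 of the 10 genes, and for 39.9% of all genes tested. ICR 2 was the lowest for 8 of 10, and its share over all genes was not counted.

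The order of mean levels differed between the strains, and that of ICR rested on ICR 1. Per kilobase of merged exon length, Mndal led in NOD/Ltj with 15.3 ± 3.20 CPM per kilobase (SD, n = 3), above all other genes. Ifi204 (6.67 ± 1.61), Ifi203 (5.47 ± 0.942), Aim2 (4.66 ± 2.00), Ifi209 (4.34 ± 0.349) and Ifi202b (3.94 ± 0.704) followed, where each overlapped the next over its libraries. Ifi211 (2.99), Ifi207 (1.97), Ifi206 (1.10) and Ifi208 (1.05) closed the list, and the last pair overlapped. In ICR the means of Ifi211 (8.69 ± 9.91), Ifi202b (7.84 ± 9.93) and Ifi204 (5.07 ± 4.50) led, but the libraries of the leading 6 genes overlapped from each to the next. In ICR 2 and ICR 3 Ifi211 stood at 2.51 and 3.45, Ifi202b at 1.23 and 3.05 and Mndal at 2.41 and 4.02 CPM per kilobase, so Mndal was among the highest there too. Aim2 (0.712), Ifi209 (0.266), Ifi208 (0.083) and Ifi206 (0.0276) stood lowest in ICR, with Ifi209 and Ifi208 overlapping. Against the longest transcript, 8 of the 10 ranks in NOD/Ltj were kept, with Ifi206 and Ifi208 exchanged.

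The make-up of the PYHIN transcripts differed with these levels. Summed per kilobase over 14 genes, Mndal and Ifi203 made up 38.7 to 42.4% in NOD/Ltj, 27.8 and 28.0% in ICR 2 and 3, and 5.76% in ICR 1. Ifi206, Ifi208, Ifi209, Ifi213 and Ifi214 together made up 11.9 to 15.9% in NOD/Ltj and 0.562 to 2.65% in ICR. Ifi202b, Ifi204, Ifi205, Ifi207 and Ifi211 made up 91.9% in ICR 1, 64.5 and 64.0% in ICR 2 and 3, and 30.6 to 38.0% in NOD/Ltj. Aim2 took 1.08 to 3.82% in ICR and 6.0 to 11.0% in NOD/Ltj. These groupings were made after the values were seen. In total the 10 genes reached 157, 34.4 and 58 CPM in ICR 1 to 3 and 146, 207 and 172 CPM in NOD 1 to 3, so the family sum overlapped between the strains.

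**Figure D4:**
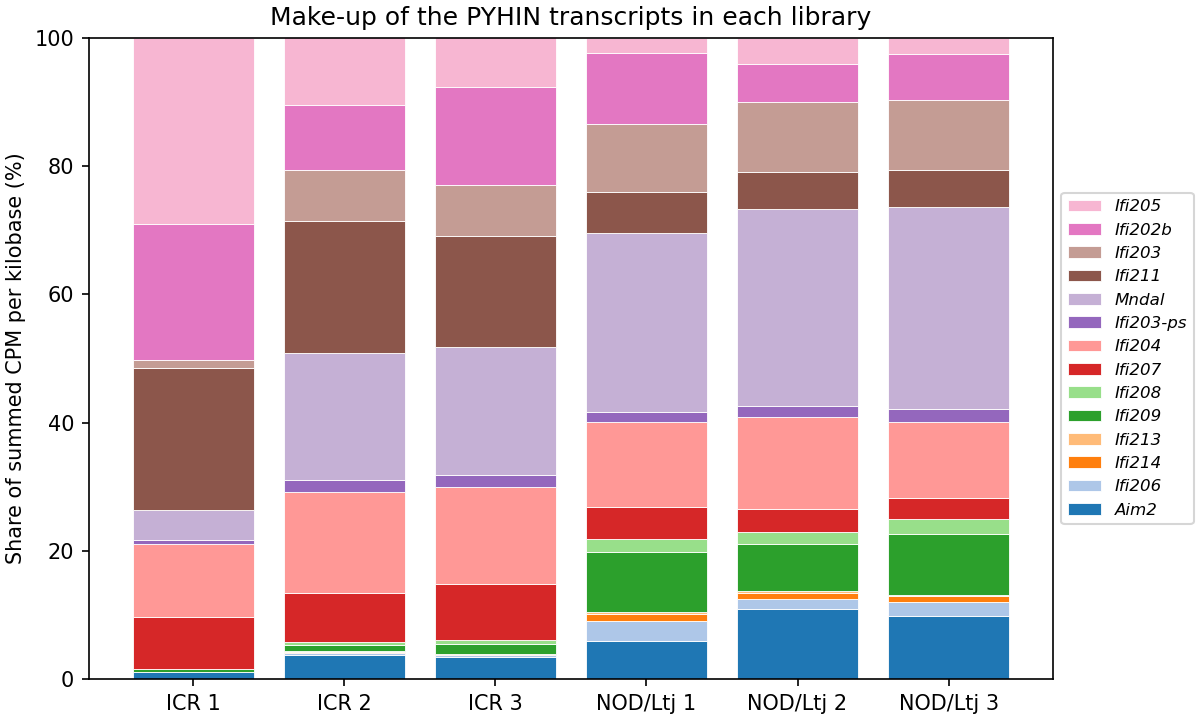
Share of each of 14 PYHIN genes in the summed CPM per kilobase of each library, in percent, stacked in annotated order from Aim2 at the bottom to Ifi205 at the top. Mndal takes the largest single share in each NOD/Ltj library, and Ifi205, Ifi211 and Ifi202b take the largest shares in ICR 1.

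Most genes beside the cluster were not called. Of the 20 nearest protein-coding genes, 10 on each side, 13 were tested, and Kmo alone was called higher, with 0 called lower. Of the 13, 3 lay wholly above ICR in NOD/Ltj and 1 wholly below, beside 11.2% and 8.89% of all genes. At an unadjusted p under 0.05 (edgeR), 2 were higher and 1 lower, beside 8.00% and 5.05% of all genes. Kmo, kynurenine 3-monooxygenase of tryptophan breakdown, went from 0.675 ± 0.192 to 6.80 ± 3.40 CPM (n = 3 per strain, ± SD; edgeR adjusted p = 0.016), a call lost without ICR 2, ICR 3, NOD 2 or NOD 3 (up to 0.089). The median log2 fold change of the 13 was 0.18, beside −0.03 for all genes. Cadm3, a cell adhesion gene that overlaps the annotated span of Aim2 on the other strand and was named after its values were seen, stood at 25.6, 7.15 and 6.87 CPM in ICR 1 to 3 and 3.42 to 5.52 CPM in NOD/Ltj (adjusted p = 0.274). No exon of Aim2 overlaps an exon of another gene in the annotation.

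Among the other genes of DNA sensing, Zbp1 alone was called. Of 21 genes of cytosolic DNA sensing, 20 had counts and were tested, 1 rose and 19 were not called. At an unadjusted p under 0.05, 5 of the 20 were higher and 0 lower, beside 8.00% and 5.05% of all genes. The gene that rose was Zbp1, a sensor of left-handed nucleic acid, from 3.08 ± 1.60 to 13.9 ± 1.87 CPM (n = 3 per strain, ± SD; edgeR adjusted p = 0.0312). It was called without ICR 1 (0.00689) and in no other reduced fit (up to 0.129), nor with the replicate block (0.103). Tmem173, which encodes Sting, stood at 4.07 to 10 CPM in ICR and 7.66 to 22.4 CPM in NOD/Ltj (log2 fold change 1.18 ± 0.50 SE, adjusted p = 0.375). Cgas, the DNA-binding enzyme that makes its ligand, stood at 1.14 to 3.16 and 2.64 to 3.29 CPM (0.48 ± 0.40, log2, SE, adjusted p = 0.714), and both were named after their values were seen. Irf3, the interferon-inducing factor downstream, stood at 44.0 ± 15.3 and 42.2 ± 4.49 CPM (n = 3 per strain, ± SD; edgeR adjusted p = 0.96). Samhd1, a nucleotide-degrading antiviral enzyme, had a log2 fold change of 1.08 ± 0.53 (SE, adjusted p = 0.458) that reached 1.99 without ICR 1 (adjusted p = 0.0209). Lrrfip1, a nucleic acid sensor, stood at 59.7 ± 2.57 and 49.1 ± 1.42 CPM (n = 3 per strain, ± SD; edgeR adjusted p = 0.514). The median log2 fold change of the 20 was 0.26.

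The inflammasome list, which is not confined to partners of Aim2, had no gene called by edgeR with all libraries. Of its 12 genes, 0 were called by edgeR or by limma-voom, beside 1.88% and 0.664% of all genes called higher. DESeq2 called 1 higher, beside 4.84%. With an unadjusted p under 0.05 (edgeR), 3 of the 12 were higher and 0 were lower, beside 8.00% and 5.05% of all genes. Pycard, the adaptor that Aim2 binds, stood at 24.0, 24.6 and 31.9 CPM in ICR 1 to 3 and at 25.3, 17.3 and 18.6 CPM in NOD 1 to 3 (log2 fold change −0.39 ± 0.21 SE, adjusted p = 0.508). Casp1, which the complex activates, stood at 2.39 to 10 CPM in ICR and 6.13 to 17.8 CPM in NOD/Ltj (1.13 ± 0.58, log2, SE, adjusted p = 0.486). Gsdmd, the pore former, had a log2 fold change of 1.53 ± 0.48 (SE, adjusted p = 0.212), called by DESeq2 (0.0259) and without ICR 1 (0.0391). The cytokines Il1b (0.31 ± 0.56, adjusted p = 0.888) and Il18 (−1.17 ± 0.70, log2, SE, adjusted p = 0.564) were not called. Casp1, Gsdmd, Il1b and Il18 were named after their values were seen. Casp8 (0.15 ± 0.28) and Ninj1 (−0.70 ± 0.37, log2, SE), which act in cell death and membrane rupture, were not called either. The median of the 12 was 0.23.

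Among interferon genes, the interferon-γ list had the largest median of the lists. Of 19 interferon-γ response genes, 14 rose and 5 were not called, where 1.88% of all genes were called higher. All 19 lay wholly above ICR in NOD/Ltj, beside 11.2% of all genes, and all 19 were higher at an unadjusted p under 0.05 (edgeR). Their median log2 fold change was 2.84. The lists were chosen with earlier results of these data known. Cxcl9 (5.23 ± 0.29), a T cell chemokine, and Tgtp2 (3.88 ± 0.33, log2, SE), an interferon-induced GTPase, led the called genes, followed by Nlrc5, the class I transactivator, Cxcl10, Tgtp1 and Igtp (3.09 to 3.40). Ciita, the class II transactivator, named after its values were seen, had 3.47 ± 0.87 (log2, SE) and was not called (adjusted p = 0.112). The pair Tgtp1 and Tgtp2 is near-identical, so their counts are uncertain. Gbp2, Irgm1 and Psmb8, not called, had log2 fold changes of 1.42, 1.66 and 2.24. Of 15 genes of interferon receptors and signalling, 14 were not called, among them Stat2 (0.94 ± 0.36), Irf1 (0.87 ± 0.36) and Jak1 (0.54 ± 0.22, log2, SE), and the median was 0.87. By log2 fold change 14 of the 15 were positive, beside 8711 of all 18537 genes tested. Of the 15, 10 lay wholly above ICR in NOD/Ltj and 0 wholly below, beside 11.2% and 8.89% of all genes. At an unadjusted p under 0.05 (edgeR), 10 were higher and 0 lower, beside 8.00% and 5.05% of all genes. Of 25 genes stimulated by type I interferon, Mx1 (3.42 ± 0.45) and Rsad2 (2.15 ± 0.35, log2, SE), both antiviral, rose and 23 were not called, with a median of 0.87. Beside 8711 of all 18537 genes tested, all 25 had a positive log2 fold change. Of them 15 lay wholly above ICR in NOD/Ltj and 0 wholly below, beside 11.2% and 8.89% of all genes. At an unadjusted p under 0.05 (edgeR), 13 were higher and 0 lower, beside 8.00% and 5.05% of all genes. Oasl2, Parp14 and Phf11d, the most abundant of those not called, had log2 fold changes of 1.01, 1.61 and 0.39. Beside these the 10 PYHIN genes had a median of 2.14, with a range from −1.54 to 5.32. The interferon-γ count was 9 without ICR 3, 6 without NOD 2, 3 without NOD 3 and 9 with the replicate block, fits in which 149, 72, 13 and 154 of the genes tested were called in either direction, beside 349 higher and 67 lower with all libraries. The type I count was 7 without ICR 1, 0 without NOD 2 or NOD 3, and 1 in the other reduced fits and with the block.

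**Figure D5:**
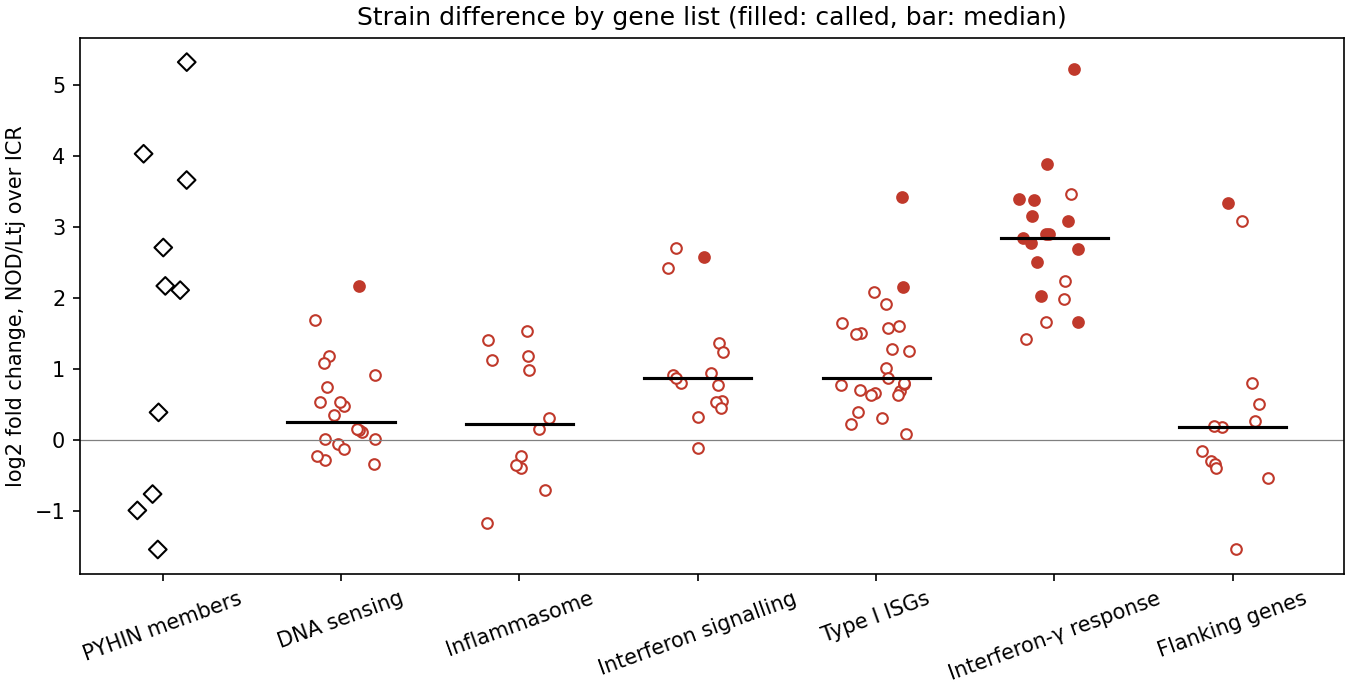
Fitted log2 fold change of NOD/Ltj over ICR for the 10 PYHIN genes (diamonds, not tested) and for 6 gene lists, each circle a gene, filled where the gene was called, with a bar at the median of each list of circles. Medians are 0.26 for DNA sensing, 0.23 for the inflammasome, 0.87 for interferon signalling and for the type I genes, 2.84 for interferon-γ and 0.18 for the flanking genes.

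The genes with the most similar profiles over the 6 libraries were found by the root mean square difference of log2(CPM + 0.5), each profile centred on its mean. For Aim2 they were Pld4 (0.11), Cd83 (0.12), Cxcr3 (0.13) and AW112010 (0.13). Pld4 is an endosomal nuclease, Cd83 a marker of activated dendritic and B cells, and Cxcr3 the receptor of Cxcl9. For Ifi206 they were Zfp729a (0.14), AC125101.1 (0.19), Gm14296 (0.22) and Cxcl10 (0.23), and for Ifi211 Prrx1 (0.11), Rcan2 (0.12), Aebp1 (0.14) and Anxa3 (0.14). Prrx1 is a mesenchymal transcription factor and Aebp1 a matrix-associated protein of fibroblasts. With a pseudocount of 0.1 CPM 4 of these 12 stayed among the nearest, Pld4, Cd83, Prrx1 and Rcan2, and none of those of Ifi206.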

How the data were processed

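The authors deposited 1 table of estimated counts per Ensembl gene, whole numbers not scaled between libraries, for 3 ICR and 3 NOD/Ltj lacrimal gland libraries. Samples were grouped by their genotype label, since the titles of the NOD/Ltj samples read MOD. Per the labels' protocols, libraries were made from polyadenylated RNA with dUTP strand marking and read as paired ends. Tools listed in the submitters' processing notes are fastp, edgeR and StringTie. For the aligner, genome build and strandedness, the sources used here give nothing. Symbols, gene order and lengths came from GENCODE M21, and promoter sequences from RefSeq (GRCm38.p6).

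The 10 genes and all gene lists were chosen with earlier results of these data known. The named list genes were, per list, up to 6 called genes by size of change and the 3 most abundant not called, and every called flanking gene. A gene that the rule names is not reported here. Names outside this rule are marked as chosen after their values were seen.

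The test was that of edgeR 4.0.16 under R 4.3.3 (quasi-likelihood, TMM scaling, filterByExpr, two-sided, no block), with Benjamini-Hochberg adjustment over 18537 genes and a threshold of 0.05. Standard errors were taken as the size of the log2 fold change over the root of the F statistic. The fit was also run on simulated counts with the same spread for every gene and both groups. Spread in the real libraries was wider within ICR, and nothing is read from that run here. Other settings were DESeq2 1.42.0, its size factors in edgeR, limma-voom 3.58.1, no filter, at least 1 CPM in 3 libraries, each library left out, and a replicate block. Chi-square per degree of freedom between libraries of a group was at least 116, so each library was counted as 1 sample.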

Additional observations from a re-analysis of the deposited data

How the results depend on the processing

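Under 12 other settings, the 10 PYHIN genes gave 120 log2 fold changes, of which 113 moved by less than their standard error, 5 moved by more and 2 turned direction. Without ICR 1, Ifi202b went from −0.99 to 0.87 and Ifi207 from −0.76 to 0.55, and over all fits with 1 library left out they ran from −1.50 to 0.87 and from −1.20 to 0.55. With 1 library left out, the number of PYHIN genes called (6) ran from 0 to 6, of the other PYHIN genes (1) from 0 to 1, of DNA sensing (1) from 0 to 2, of the inflammasome (0) from 0 to 2, of interferon signalling (1) from 0 to 1, of type I genes (2) from 0 to 7, of interferon-γ genes (14) from 3 to 18 and of flanking genes (1) from 0 to 1. DESeq2 called 2 other PYHIN, 2 DNA sensing, 1 inflammasome, 4 interferon signalling, 8 type I and 2 flanking genes. Limma-voom called 1 type I and 0 flanking genes. With the replicate number as a block, 3 PYHIN, 0 other PYHIN, 0 DNA sensing, 0 interferon signalling, 1 type I and 9 interferon-γ genes were called, and the counts of the inflammasome (0) and flanking (1) lists did not change. The titles share only a number: deviations from the group means correlated at −0.16, −0.19 and 0.12 over genes for numbers 1, 2 and 3. With a pseudocount of 0.1 CPM, 4 of 12 nearest profiles were kept. The causes were not tested, beyond fewer libraries where one was left out. Depth limits Ifi206 and Ifi213, with about 4 and 2 fragments in ICR at the assumed 4 counts per fragment.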
